A study of Mus musculus with 11 samples.

Results

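RNA levels of 46 genes of the nuclear pore complex and of nuclear transport were examined in 3T3-L1, an established line of mouse fibroblasts that become fat cells under adipogenic hormones. Members were taken by gene symbol: the numbered nucleoporins (Nup), importin alphas (Kpna), importins (Ipo) and exportins (Xpo), with Kpnb1, Ndc1, Pom121, Rae1, Seh1l, Sec13, Aaas, Ranbp2 and Ran. They are 46 of the 19057 genes that the arrays named, and 40 of them reached a signal above background on at least 1 array. Tpr, which the choice also listed, has no named probe here. Nup58 and Nup42 stand in the gene table under older symbols, Nupl1 and Nupl2, and are therefore given with the other transport genes.

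The nuclear pore complex is the channel that joins nucleus and cytoplasm. Its proteins, the nucleoporins, are grouped by place: the Y complex forms the outer rings of the scaffold, the inner ring lies between them, and the membrane nucleoporins hold the complex in the nuclear envelope. The central channel carries the phenylalanine-glycine repeats that transport receptors bind, and filaments and a basket project from the cytoplasmic and nuclear faces. Importin alphas bind cargo that carries a nuclear localisation signal and join it to importin beta 1, other importins and exportins carry cargo directly, and the small GTPase Ran sets the direction of transport. In dividing cells these proteins are also needed to rebuild the nucleus after mitosis.

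All cells carried a lentiviral short hairpin RNA (shRNA). The preadipocytes (2 arrays, day 0, not induced) and the control adipocytes (3 arrays) carried a non-target shRNA. The sample labels do not give the confluence of the preadipocytes. The paper describes its parallel preadipocyte samples as collected before confluence. The knock-down adipocytes carried shRNAs against Tmem120a, against Tmem120b or against both (2 arrays each), which are genes for transmembrane proteins of the nuclear envelope. The 4 adipocyte groups were induced with insulin (0.5 µM), dexamethasone (1 µM), rosiglitazone (1 µM) and the phosphodiesterase inhibitor IBMX (0.5 mM) and then kept in insulin and rosiglitazone. Their sample labels read day 9, whereas the series description reads day 6, and the data cannot decide between the days. Total RNA of the bulk cultures was hybridised to whole-genome bead arrays, so fewer cells of a type and less RNA per cell cannot be told apart. The lines are stable shRNA lines, and their number of separate transductions was not stated in the sources read. The methods call the replicates biological, and the p-values measure the spread between these arrays.

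Signals are normalised log2 values, on which a difference of 1 is a 2-fold change. Signals of 6.85 or less were treated as background, and where a group lay wholly at or below it only a lower limit of the fold is given. A member was called changed where limma gave an adjusted p of 0.05 or less and the log2 change was no smaller than 0.5 in either direction (1.4-fold). Over all probes, replicate arrays correlated at between 0.9939 and 0.9976, and between 18154 and 18189 of 45281 probes per array lay above background. The targeted genes fell in their own knock-downs. Tmem120a stood at 12.52, 12.69 and 12.69 in control adipocytes, at 11.14 and 11.48 in its knock-down and at 11.51 and 11.52 in the double knock-down. Tmem120b stood at 10.53, 10.35 and 10.46 in control adipocytes, at 8.38 and 8.39 in its knock-down and at 8.87 and 8.79 in the double knock-down. In preadipocytes 7 of 11 adipocyte markers lay at background, among them Adipoq, and all 11 lay above it in each adipocyte group.

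Promoter windows from RefSeq on GRCm38.p6, reaching from 250 bases before to 50 bases after an annotated transcript start, were given for 37 of the members. They hold 42 windows, searched on both strands for CCAAT (the Y box that NF-Y binds), CACGTG (an E box), TTTGAA (a core of the cell cycle homology region), and TTTCCCGC and TTTGGCGC (E2F sites). CCAAT lay in 20 of the 42 windows (47.6%), of 17 genes, and in 37.4% of the 32851 windows of all genes. CACGTG lay in 7 windows (16.7%, against 7.15% of all windows) and TTTGAA in 10 (23.8%, against 17.9%). TTTCCCGC lay in 1 window (2.38%, against 1.07%), that of Nup210, and TTTGGCGC in 0 (against 0.514%). These shares are descriptions, without a test. Of the 8 members with the largest falls in differentiation 6 have a window, and 5 of these genes hold CCAAT in at least 1 window. Of all 37 members with a window 17 do. These are counts of genes and cannot be set against the 37.4% of windows, since Ipo5 and Nup93 have more than 1 window. A link of the motif to the falls was not tested. The windows below are of genes whose signals carry the results: importin beta 1 and the importin alpha Kpna2, the inner ring nucleoporin Nup93 (the upstream one of its windows), the Y complex nucleoporin Nup107, whose window holds none of the motifs, and the membrane nucleoporin Pom121. They lie on GRCm38.p6 at chr11:97187843-97188142 (minus strand), chr11:106999476-106999775 (minus), chr8:94214314-94214613 (plus), chr10:117792656-117792955 (minus) and chr5:135394497-135394796 (minus). Capitals mark matches to CCAAT, to the E box and to the cell cycle element, which read in reverse complement where they lie on the opposite strand. No printed match overlaps another.
Kpnb1: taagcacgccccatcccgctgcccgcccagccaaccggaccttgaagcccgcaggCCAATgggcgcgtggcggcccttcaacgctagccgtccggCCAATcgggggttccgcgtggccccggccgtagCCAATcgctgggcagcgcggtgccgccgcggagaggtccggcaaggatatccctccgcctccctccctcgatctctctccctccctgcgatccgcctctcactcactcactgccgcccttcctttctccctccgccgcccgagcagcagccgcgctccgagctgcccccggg
Kpna2: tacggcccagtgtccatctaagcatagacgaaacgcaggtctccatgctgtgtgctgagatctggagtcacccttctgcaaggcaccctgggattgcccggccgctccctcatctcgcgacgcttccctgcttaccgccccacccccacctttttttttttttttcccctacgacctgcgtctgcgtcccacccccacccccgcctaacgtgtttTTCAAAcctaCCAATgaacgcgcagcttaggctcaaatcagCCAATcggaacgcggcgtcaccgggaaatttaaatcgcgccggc
Nup93: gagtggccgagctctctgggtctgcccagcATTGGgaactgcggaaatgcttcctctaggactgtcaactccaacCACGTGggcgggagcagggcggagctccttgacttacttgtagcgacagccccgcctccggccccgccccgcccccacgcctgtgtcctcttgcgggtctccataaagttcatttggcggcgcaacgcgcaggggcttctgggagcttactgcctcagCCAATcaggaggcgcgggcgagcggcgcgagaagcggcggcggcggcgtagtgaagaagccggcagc
Nup107: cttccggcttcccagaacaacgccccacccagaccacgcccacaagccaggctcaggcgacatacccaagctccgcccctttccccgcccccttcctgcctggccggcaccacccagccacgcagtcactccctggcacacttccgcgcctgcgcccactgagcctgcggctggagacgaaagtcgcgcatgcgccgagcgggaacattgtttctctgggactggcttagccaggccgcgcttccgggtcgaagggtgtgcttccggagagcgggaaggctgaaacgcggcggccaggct
Pom121: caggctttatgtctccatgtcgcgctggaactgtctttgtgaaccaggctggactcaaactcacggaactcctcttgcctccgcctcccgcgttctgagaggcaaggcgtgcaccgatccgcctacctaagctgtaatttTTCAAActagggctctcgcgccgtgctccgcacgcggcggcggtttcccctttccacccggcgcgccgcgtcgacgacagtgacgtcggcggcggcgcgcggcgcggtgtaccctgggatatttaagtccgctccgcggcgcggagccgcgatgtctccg

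In differentiation most members fell and none rose past the thresholds. Between preadipocytes and control adipocytes 27 of the 46 members (58.7%) were called lower, 15 of them by at least 2-fold, and 0 were called higher by limma, with 1 member higher at an unadjusted p below 0.05. Of all genes 11.1% were called lower and 11.9% higher. Many genes on the array lie at background and cannot fall, and of the 9649 genes with a mean above background 21.5% were called lower. The members' share is over all 46, with those at background included. The median log2 change of the members was -0.65, against 0.00 for all genes. By role, 18 of 27 nucleoporins were called lower, among them 7 of 8 Y complex and 3 of 4 inner ring members, and 8 of 18 transport receptors.

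**Figure D1:**
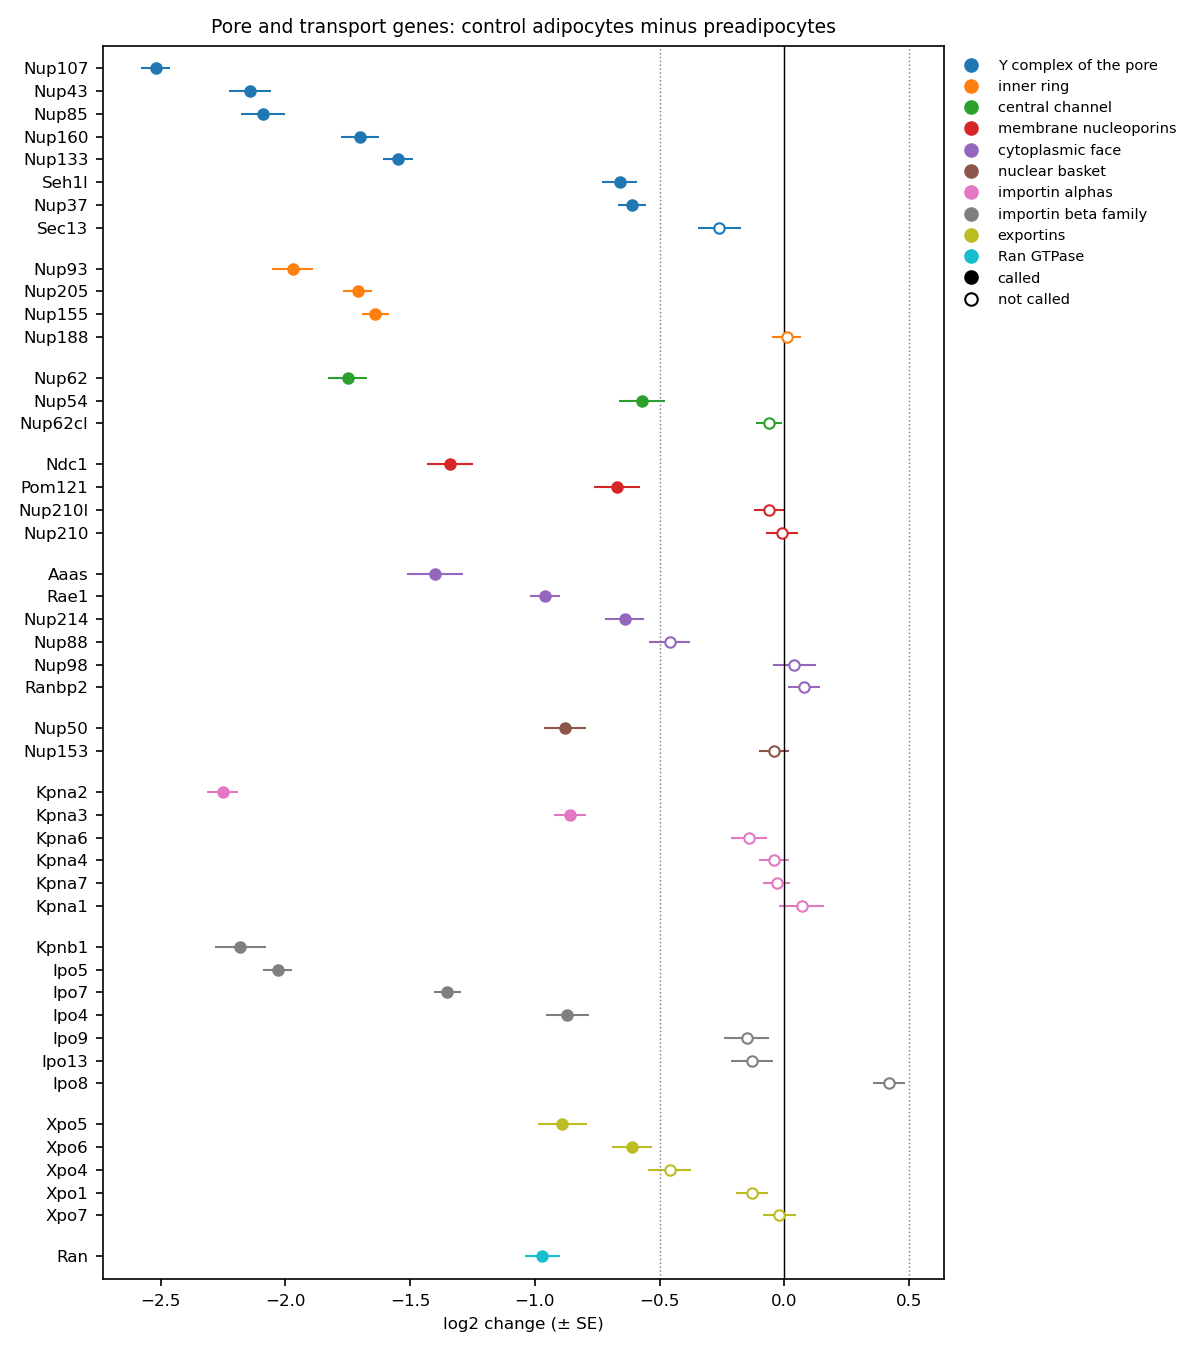
Log2 change of each of the 46 members in control adipocytes (3 arrays) minus preadipocytes (2 arrays), grouped by role, with the limma standard error as bars. Filled points passed both thresholds and dotted lines mark a log2 change of 0.5 in size; the filled points all lie to the left of 0, down to -2.52 for Nup107.

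Among the Y complex the steepest fall was that of Nup107, a subunit of its stem. Its signal was 10.74 and 10.76 in preadipocytes and 8.18, 8.25 and 8.27 in control adipocytes, a log2 change of -2.52 ± 0.057 (SE, limma, adjusted p = 3e-12) or 5.73-fold. Both preadipocyte arrays lay far above all 3 adipocyte arrays. Nup43, a propeller-shaped subunit of the same complex, stood at 10.59 and 10.67 in preadipocytes and at 8.41, 8.41 and 8.66 in control adipocytes (log2 change -2.14 ± 0.084, adjusted p = 4.49e-10). Nup85, a subunit of the short arm, stood at 11.40 on both preadipocyte arrays and at 9.24, 9.32 and 9.38 in control adipocytes (-2.09 ± 0.087, adjusted p = 7.55e-10). None of these groups overlapped. Nup160, in the long arm, and Nup133, at the tail of the stem, fell by 1.70 and 1.55 on the log2 scale, while Seh1l and Nup37, smaller propeller subunits, fell by 0.66 and 0.61. Sec13, which the pore shares with the COPII coat of the secretory pathway, was the Y complex member not called: its change was -0.26 (adjusted p = 0.037), short of the fold threshold.

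In the inner ring 3 of 4 members were called lower, with a median of -1.67, and in the central channel 2 of 3, with a median of -0.57. Nup93, which links the ring to the channel, stood at 11.24 and 11.29 in preadipocytes and at 9.21, 9.27 and 9.42 in control adipocytes (-1.97 ± 0.082, adjusted p = 7.34e-10). Nup62, the central repeat protein of the channel, stood at 11.09 and 10.84 in preadipocytes and at 9.21, 9.19 and 9.27 in control adipocytes (-1.75 ± 0.078, adjusted p = 1.49e-09). In both cases every preadipocyte array lay above every adipocyte array. The ring members Nup205 and Nup155 fell by 1.71 and 1.64 on the log2 scale, and Nup54, the channel partner of Nup62, fell by 0.57. Nup188 and Nup62cl, a gene similar to Nup62, lay at background on all arrays and gave no measure of change.

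At the membrane Ndc1, which anchors the pore in the envelope, fell by 1.34, and Pom121 fell by 0.67 on the log2 scale. Nup210 lay at background in both groups, as did Nup210l. On the cytoplasmic face Aaas (aladin) fell by 1.40, Rae1, an mRNA export factor, by 0.96 and Nup214, the docking site of export complexes, by 0.64. Nup88, the partner of Nup214, missed the fold threshold with -0.46 (adjusted p = 0.000754), and Nup98 and Ranbp2, the large filament protein that binds Ran, changed by 0.04 and 0.08 with overlapping arrays. In the nuclear basket Nup50 fell by 0.88, and the probe for Nup153 lay at background throughout.

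Among the transport receptors 2 of 6 importin alphas, 4 of 7 members of the importin beta family and 2 of 5 exportins were called lower. Kpna2, an importin alpha abundant in dividing cells, stood at 9.37 and 9.50 in preadipocytes and at 7.13, 7.25 and 7.18 in control adipocytes (-2.25 ± 0.062, adjusted p = 1.7e-11, 4.76-fold). Kpna3 fell by 0.86, whereas Kpna1 (0.07) and Kpna6 (-0.14) were not called and the probes for Kpna4 and Kpna7 lay at background. Kpnb1, importin beta 1, with which the importin alphas work, stood at 11.33 and 11.51 in preadipocytes and at 9.28, 9.18 and 9.28 in control adipocytes (-2.18 ± 0.103, adjusted p = 2.61e-09). Ipo5, which carries ribosomal proteins and histones, stood at 11.21 and 11.10 in preadipocytes and at 9.06, 9.13 and 9.18 in control adipocytes (-2.03 ± 0.058, adjusted p = 2.19e-11). For each of these 3 genes every preadipocyte array lay above every adipocyte array.

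Ipo7, another importer of ribosomal proteins and histones, dropped from 8.21 and 8.10 to background in all 3 control arrays, at least 2.47-fold (adjusted p = 6.11e-10). Ipo4 fell by 0.87. Ipo9 (-0.15) and Ipo13 (-0.13) were not called. Ipo8, which imports Argonaute proteins among other cargo, was the only member above background with a higher estimate that passed the adjusted p: it stood at 8.77 and 8.68 in preadipocytes and at 9.18, 9.04 and 9.23 in control adipocytes (0.42, adjusted p = 0.000203), below the fold threshold. Of the exportins Xpo5, which exports microRNA precursors, fell by 0.89 and Xpo6, which exports actin with profilin, by 0.61. Xpo4 missed the fold threshold (-0.46, adjusted p = 0.000806) and Xpo7 changed by -0.02 with overlapping arrays. The probe for Xpo1, the main exportin for protein cargo, exceeded background on 1 of 11 arrays, so its level was not measured. Ran itself stood at 10.11 and 10.16 in preadipocytes and at 9.15, 9.23 and 9.11 in control adipocytes, a fall by 0.97 on the log2 scale (adjusted p = 1.62e-07).

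The other genes of transport and of the pore, a list of 32 outside the symbol rule, moved the same way: 19 were called lower and 1 higher. Genes of the Ran cycle had the largest falls. Ranbp1, which helps release Ran from receptors, stood at 13.23 and 13.34 in preadipocytes and at 10.47, 10.85 and 10.71 in control adipocytes (-2.61, adjusted p = 5.98e-10). Rangap1, which triggers GTP hydrolysis by Ran, changed by -2.08, and Rcc1, which reloads Ran with GTP, changed by -1.78. Nxt1, a partner of the mRNA exporter, changed by -1.73. Nupl1 (Nup58) and Nupl2 (Nup42) fell by 1.11 and 0.95. Nxt2, a relative of Nxt1, was the gene called higher (0.54, adjusted p = 0.00143).

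Proliferation markers moved alongside these genes. Of 14 markers of dividing cells 12 were called lower in differentiation, and their mean signal was 10.04 to 10.06 in preadipocytes and 7.37 to 7.42 in control adipocytes, with Ccnb2 and Bub1 at background in both groups. Their part in the fall of the pore and transport genes was not tested. Markers of macrophages (6.90 to 6.96) and endothelial cells (6.73 to 6.78) had mean signals near background in both groups. Of 6 smooth muscle markers 4 were called lower and 1 higher, with a mean signal of 9.82 to 9.87 in preadipocytes and 7.50 to 7.55 in control adipocytes and Cnn1 at background in both, and of 11 preadipocyte and fibroblast markers 2 were called lower and 2 higher (means of 10.97 to 11.02 and 10.93 to 10.95, Cd34 at background in both). The part of these lists was not tested either.

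In 21 members more than 1 probe was present, and in 11 of them more than 1 probe had a mean above background. Of the 7 such members called lower on their brightest probe, 4 were called lower on another probe as well: Nup133 (-1.52 on its second probe), Aaas (-0.73), Ipo5 (-0.58) and Nup155 (-0.59 and -0.61). In these 7 members each dimmer probe gave a smaller change than the brightest one, and for Nup50, Seh1l and Xpo6 the remaining bright probes were not called. Nup50, for example, changed by -0.88 on the brightest probe and by -0.35 and -0.31 on the others. Nup88 was the reverse case, with -0.46 on the brightest probe and a called -0.71 on the second. Whether the probes of a gene report the same transcripts was not tested.

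**Figure D2:**
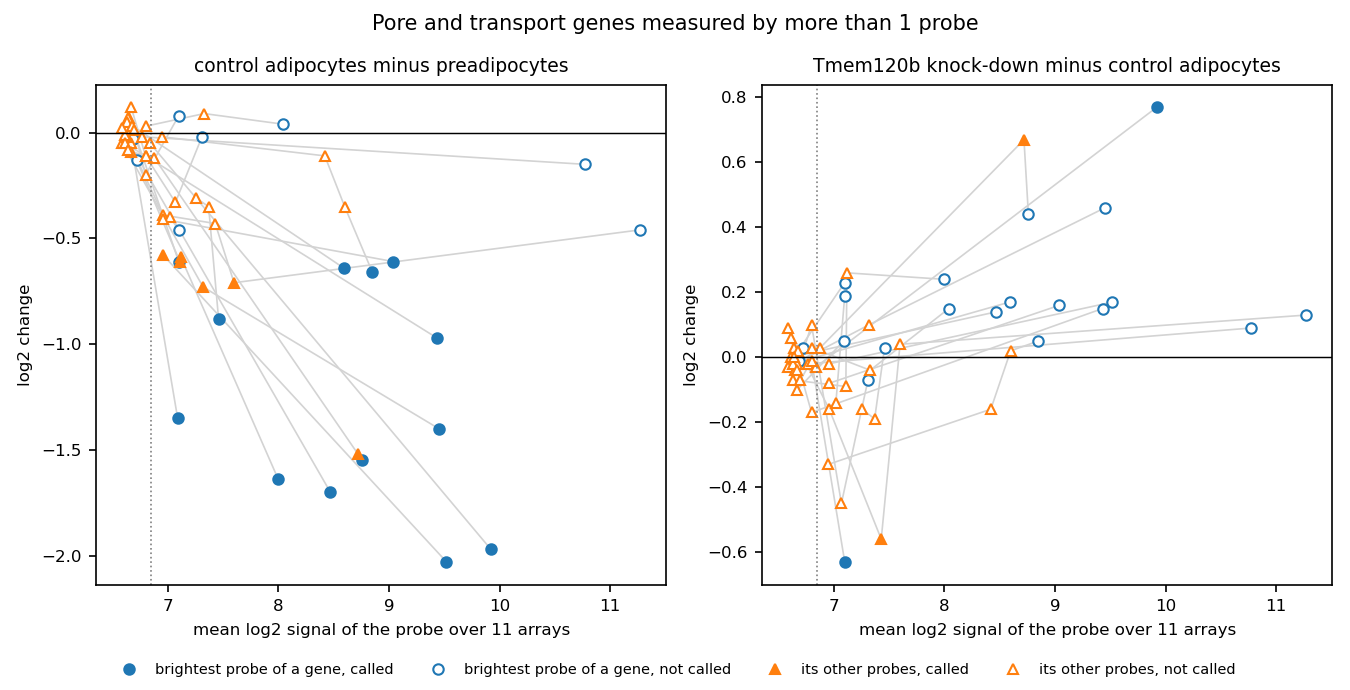
Log2 change of every probe of the 21 members with more than 1 probe against the mean log2 signal of the probe over 11 arrays, for differentiation (left) and Tmem120b knock-down (right), with grey lines joining probes of a gene. Probes left of the dotted line at 6.85 lie at background and cluster around a change of 0, and filled symbols passed both thresholds.

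Knock-down of Tmem120a lowered 3 members against control adipocytes, the importins Kpnb1 and Kpna3 and the membrane nucleoporin Pom121, and raised 0 in limma (8 were higher at an unadjusted p below 0.05). Of all genes 2.32% were called lower and 0.829% higher, and of genes with a mean above background 4.58% and 1.64%, and 6.52% of the members were called lower. Kpnb1 went from 9.28, 9.18 and 9.28 in control adipocytes to 8.20 and 7.84 (-1.22 ± 0.103, adjusted p = 1.38e-05, 2.34-fold). Kpna3, an importin alpha, went from 8.36, 8.29 and 8.34 to 7.31 and 7.33 (-1.01 ± 0.063, adjusted p = 1.82e-06). Pom121 went from 8.43, 8.53 and 8.26 to 7.50 and 7.60 (-0.86 ± 0.093, adjusted p = 9.81e-05). For all 3 genes no knock-down array reached the lowest control array. A further 5 members passed the adjusted p without the fold threshold: Nup43 (0.43) and Rae1 (0.23) with higher estimates, and Ranbp2 (-0.44), Kpna2 (-0.37) and Nup160 (-0.27) with lower ones, Kpna2 having reached background in the knock-down (at least 1.26-fold lower). When arrays were aligned by their medians alone, without quantile normalisation, 10 members were called lower and 0 higher, and of all genes 2626 were called lower and 7 higher. The median change of the members in the main fit was 0.03, against 0.01 for all genes. Before normalisation the median signal was 7.1, 6.87 and 6.92 on the control adipocyte arrays and 6.63 and 6.58 on the Tmem120a knock-down arrays. It was 6.59 and 6.65 for the Tmem120b and 6.68 and 6.7 for the double knock-down. Every knock-down array was thus dimmer than every control array. The part of this difference in the changes was not tested.

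**Figure D3:**
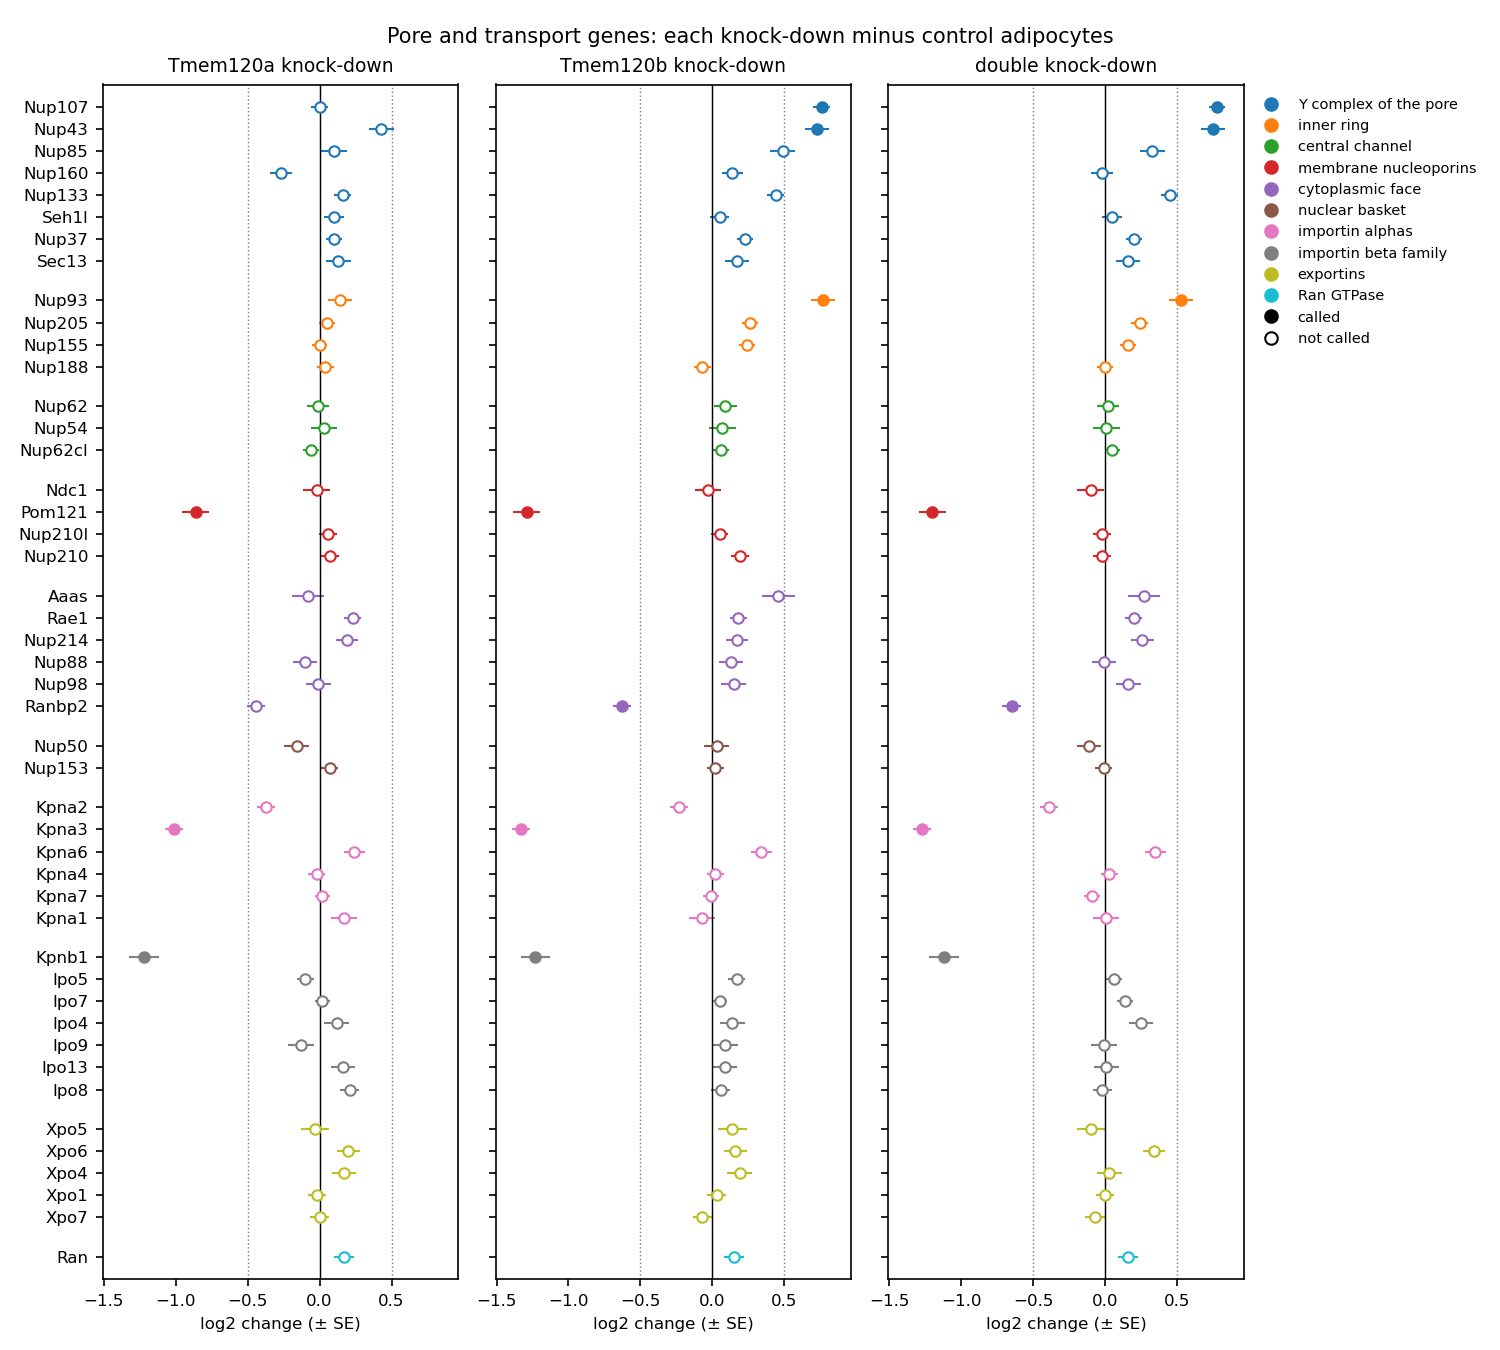
Log2 change of each member in the Tmem120a, Tmem120b and double knock-downs (2 arrays each) minus the same 3 control adipocyte arrays, with the limma standard error as bars, grouped by role. Filled points passed both thresholds and dotted lines mark 0.5 in size: Pom121, Kpna3 and Kpnb1 are filled on the left in each panel, while Nup107, Nup43 and Nup93 are filled on the right in the Tmem120b and double knock-downs.

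Knock-down of Tmem120b moved members in both directions, with 4 called lower and 3 called higher. Of all genes 4.04% were called lower and 3.83% higher, and of genes with a mean above background 7.97% and 7.52%. The members' shares, 8.7% lower and 6.52% higher, are near those of expressed genes. They are counted over all 46 members, however, including members at background on every array. The lower members included the same importins and Pom121. Kpna3 stood at 7.09 and 6.91 in the knock-down (-1.33 ± 0.063, adjusted p = 5.83e-08), Pom121 at 7.20 and 7.04 (-1.29 ± 0.093, adjusted p = 1.3e-06) and Kpnb1 at 8.0 and 8.03 (-1.23 ± 0.103, adjusted p = 4.39e-06). These are falls of between 2.34-fold and 2.52-fold against the control values given above, with no overlap of arrays. Ranbp2 was the fourth, going from 7.45, 7.45 and 7.39 in control adipocytes to background at 6.85 and 6.75, at least 1.49-fold lower (adjusted p = 1.97e-05). The second probe of Ranbp2 lay at background on average and changed by -0.01.

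The 3 members that rose belong to the scaffold. Nup93 went from 9.21, 9.27 and 9.42 to 10.08 and 10.06 (0.77 ± 0.082, adjusted p = 3.04e-05), Nup107 from 8.18, 8.25 and 8.27 to 8.94 and 9.05 (0.76 ± 0.057, adjusted p = 1.73e-06), and Nup43 from 8.41, 8.41 and 8.66 to 9.27 and 9.17 (0.73 ± 0.084, adjusted p = 6.13e-05). All arrays of the knock-down lay above all control arrays and below both preadipocyte arrays. In the Y complex all 8 members had an estimate above 0, with a median of 0.33, and Nup85 (0.49), Nup133 (0.44) and Nup37 (0.23) passed the adjusted p but not the fold threshold, as did Aaas (0.46), Kpna6 (0.34), Nup205 (0.26) and Nup155 (0.24) elsewhere. Kpna2 passed it with a lower estimate (-0.23). The second probe of Nup133 was called higher (0.67). When arrays were aligned by their medians alone the changes of Nup93, Nup107 and Nup43 were 0.30, 0.31 and 0.26 and were not called, while all genes split into 156 higher and 2515 lower.

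Of 14 proliferation markers 10 were called higher and 1 lower in the Tmem120b knock-down, with a mean signal of 8.11 to 8.14 against 7.37 to 7.42 in control adipocytes, and Ccnb2, Ccna2 and Bub1 at background in both. Of 6 smooth muscle markers 3 were called higher in the Tmem120b knock-down, with a mean signal of 8.08 to 8.12 against 7.50 to 7.55, and Tagln and Cnn1 at background in both. Of 11 preadipocyte and fibroblast markers 3 were called higher and 1 lower there (means of 11.14 to 11.25 against 10.93 to 10.95). Of 11 adipocyte markers 1 was called higher and 2 lower (means of 10.91 to 11.02 against 11.21 to 11.22). In the Tmem120a knock-down 1 proliferation marker was called higher and 1 lower, with a mean of 7.42 on both arrays and Ccnb2, Ccna2, Bub1 and Rrm2 at background. In that knock-down 2 of 11 preadipocyte and fibroblast markers were called lower and 0 higher. Of 11 adipocyte markers 1 was called higher and 1 lower. The part of these marker lists in the changes of the members was not tested. Of the 32 other transport genes 2 were called higher in the Tmem120b knock-down, Ranbp1 (0.56) and Rangap1 (0.53), and 2 lower, Ncbp2 (-0.68), the small subunit of the nuclear cap-binding complex, and Phax (-0.59), which exports small nuclear RNAs. In the Tmem120a knock-down limma called 0 of the 32, of which 3 passed the adjusted p.

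On their brightest probes the double knock-down changed the same 7 members as the Tmem120b knock-down, which shares its control arrays. Kpna3 stood at 7.03 and 7.08 (-1.27 ± 0.063, adjusted p = 8.02e-08), Pom121 at 7.07 and 7.35 (-1.20 ± 0.093, adjusted p = 2.55e-06) and Kpnb1 at 7.99 and 8.26 (-1.12 ± 0.103, adjusted p = 9.76e-06). Ranbp2 lay at background, at 6.77 and 6.78, at least 1.49-fold below control adipocytes (adjusted p = 1.47e-05). Each of these 4 genes had its double knock-down arrays below all control arrays. Nup107 stood at 9.05 and 8.98 (0.78 ± 0.057, adjusted p = 1.55e-06), Nup43 at 9.33 and 9.16 (0.75 ± 0.084, adjusted p = 5.05e-05) and Nup93 at 9.97 and 9.68 (0.53 ± 0.082, adjusted p = 0.000658). The arrays of these 3 lay above all control arrays. With arrays aligned by their medians alone the 3 changes were 0.48, 0.44 and 0.21 and none was called. The change of Nup93 was also under the fold threshold with cyclic loess (0.48), dropping to 0.39 without replicate 1 of the double knock-down and to 0.48 without control replicate 1. Of all genes 3.96% were called lower and 3.29% higher, and of genes with a mean above background 7.82% and 6.49%. The members' shares, 8.7% lower and 6.52% higher, are near those of expressed genes, though counted over all 46 members, including members at background on every array. Proliferation markers had a mean signal of 7.93 to 8.01, with 10 of 14 called higher and 1 lower. Of 11 preadipocyte and fibroblast markers 3 were called higher and 0 lower, and of 11 adipocyte markers 0 higher and 2 lower. The part of these lists was not tested. Among other transport genes Nxt1 rose (0.53), and Phax (-0.55) and Ncbp2 (-0.52) fell.

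**Figure D4:**
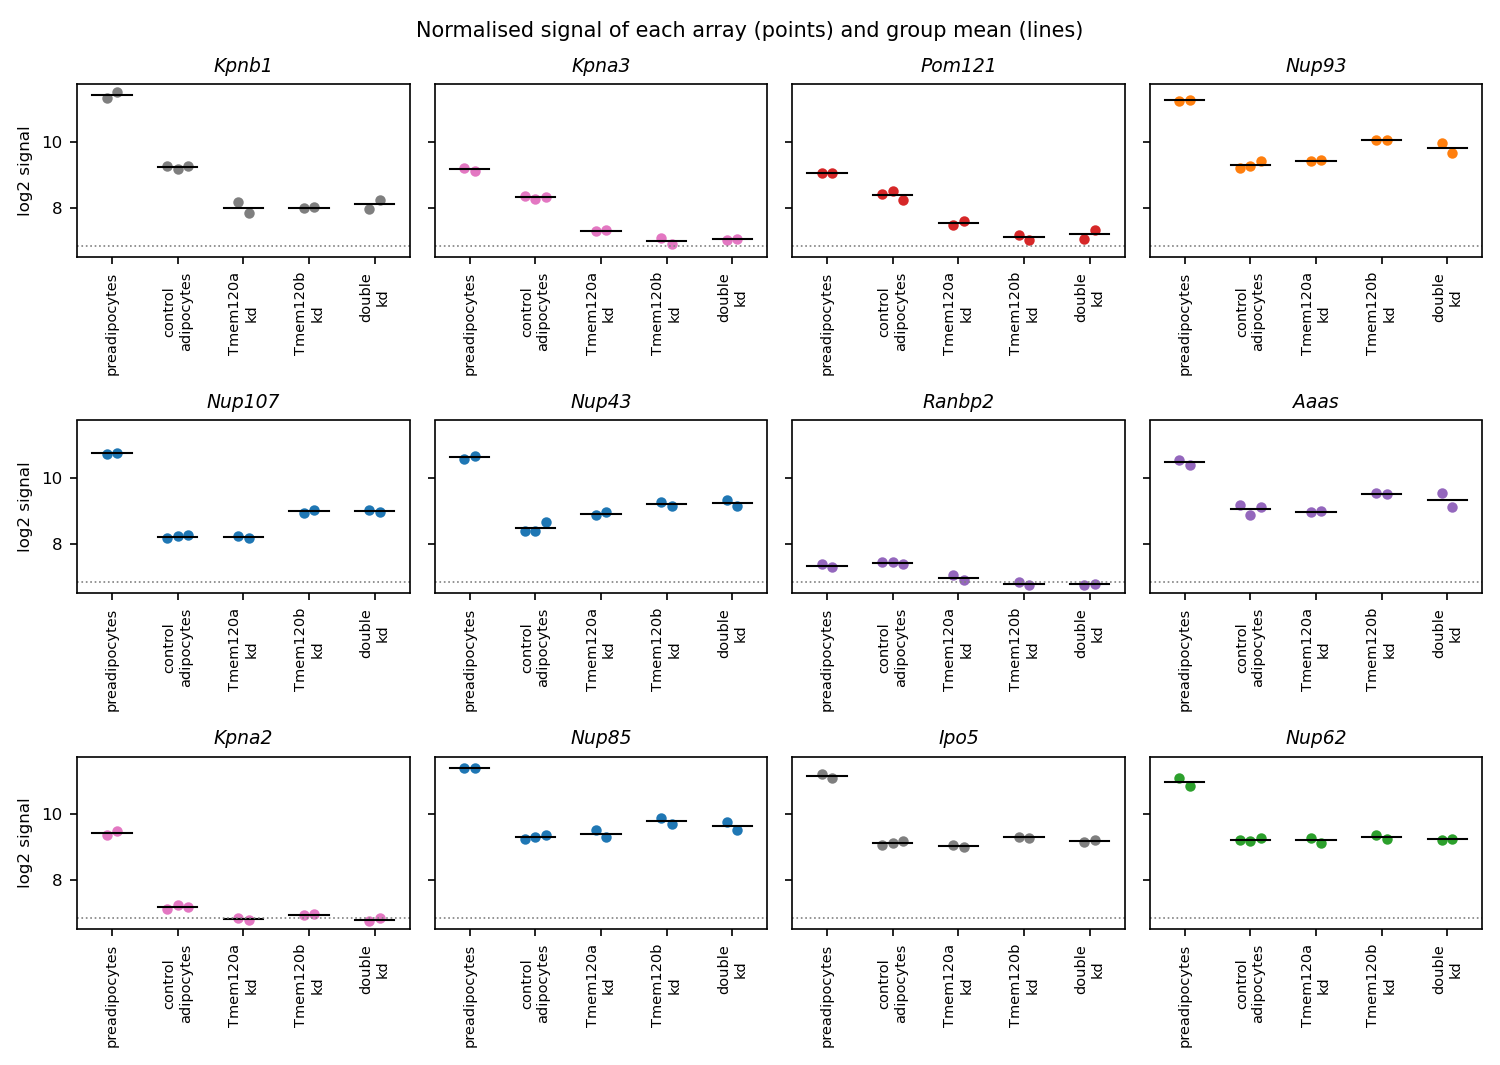
Normalised log2 signal of each of the 11 arrays (points) with the group mean (lines) for 12 members, in preadipocytes, control adipocytes and the 3 knock-downs (kd). The dotted line is background at 6.85. Kpnb1, Kpna3 and Pom121 step down from preadipocytes to control adipocytes and again to every knock-down, whereas Nup107 and Nup93 lie higher in the Tmem120b and double knock-downs than in the other adipocyte groups.

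Set directly against each other, the Tmem120a and Tmem120b knock-downs differed in 3 members (6.52%), all lower in the Tmem120a knock-down. Of all genes 6.42% were called in either direction, and of the 9649 genes with a mean above background 1220 were. The members' share is thus near that of all genes. Nup107 stood at 8.26 and 8.20 when Tmem120a was targeted and at 8.94 and 9.05 when Tmem120b was (-0.76 ± 0.063, adjusted p = 8.75e-06). Nup93 stood at 9.43 and 9.45 against 10.08 and 10.06 (-0.63 ± 0.090, adjusted p = 0.00055), and Aaas at 8.97 and 9.01 against 9.56 and 9.51 (-0.54 ± 0.123, adjusted p = 0.0124). The arrays did not overlap. The call of Aaas was lost without replicate 1 of either knock-down (adjusted p = 0.0725 and 0.0805) and without replicate 2 of the Tmem120b knock-down (0.0519). It was also lost with median alignment (-0.59, adjusted p = 0.345), on its second probe (-0.35) and on the mean of its probes (-0.45). Over all alternatives its adjusted p reached up to 0.345. The alternatives include a joint F test over differentiation and every knock-down, whose p does not measure this comparison alone. In the same comparison 9 of 14 proliferation markers and 5 of 11 preadipocyte and fibroblast markers were called lower in the Tmem120a knock-down and 0 of either higher. The mean signal of the proliferation list was 7.42 in the Tmem120a and 8.11 to 8.14 in the Tmem120b knock-down, and that of the preadipocyte and fibroblast list 10.65 to 10.79 and 11.14 to 11.25. Of 11 adipocyte markers 4 were called higher in the Tmem120a knock-down and 0 lower, with means of 11.34 to 11.46 against 10.91 to 11.02. The part of these lists in the result was not tested. Nup43 did not pass in this comparison, and neither did Kpnb1. Kpna3 (0.32) and Pom121 (0.43) were higher in the Tmem120a knock-down with adjusted p of 0.00962 and 0.0171, short of the fold threshold, as were Nup160 (-0.41), Nup85 (-0.38), Nup133 (-0.28), Ipo5 (-0.27) and Nup155 (-0.24) on the lower side.

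Adding the Tmem120b shRNA to the Tmem120a knock-down raised Nup107, from 8.26 and 8.20 to 9.05 and 8.98 (0.78 ± 0.063, adjusted p = 1.49e-05), and called no other member. The called share was 2.17% of the members, against 4.87% of all genes in either direction. Nup93 (0.39), Nup133 (0.30) and Kpna3 (-0.26) passed the adjusted p alone. Without replicate 2 of the double knock-down 3 members were called. Here 9 of 14 proliferation markers and 5 of 11 preadipocyte and fibroblast markers were called higher (means of 7.93 to 8.01 and 11.16 to 11.26 in the double knock-down). Of 11 adipocyte markers 2 were called lower and 0 higher. The part of these lists was not tested. Adding the Tmem120a shRNA to the Tmem120b knock-down called 0 members in limma. Their estimates ran from -0.24 to 0.18, with 4 members lower and 0 higher at an unadjusted p below 0.05, and 0.199% of all genes were called.

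For 3 members the combined knock-down departed from the sum of the single ones on the log2 scale, where 1.67% of all genes departed in the same direction. The double knock-down lay above the sum by 1.33 ± 0.153 for Kpnb1 (adjusted p = 0.000752), by 1.07 ± 0.094 for Kpna3 (adjusted p = 0.000131) and by 0.95 ± 0.139 for Pom121 (adjusted p = 0.00338). The sum itself lies below background for each of them, at 6.79 for Kpnb1, 5.99 for Kpna3 and 6.26 for Pom121, and levels so low could not be seen on these arrays. Counted from background instead, the double knock-down stood higher by 1.27 for Kpnb1, by 0.20 for Kpna3 and by 0.35 for Pom121, so the departures of Kpna3 and Pom121 lie mostly in the range that the arrays do not measure. Against control adipocytes these genes changed by between -0.86 and -1.33 in the single knock-downs and by between -1.12 and -1.27 in the double knock-down. Each of the 3 genes has 1 probe. For Ranbp2, at background in the double knock-down with a sum of 6.36, a departure could not be measured.

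All members not named with the knock-downs had changes below 0.5 in size in each of the 3 comparisons and are among the open points in the plot of knock-down changes. For further bright probes of members, 1 was called lower in the Tmem120b knock-down (Nup88, -0.56) and 1 in the double knock-down (Xpo7, -0.55), where the brightest probes of these genes changed by 0.13 and -0.07. The second probe of Nup133 was called higher in the double knock-down too (0.57, adjusted p = 3.92e-05), where its brightest probe changed by 0.45.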

How the data were processed

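The authors deposited 2 tables of log2 signal for 45281 probes on 11 arrays (Illumina MouseWG-6 v2), one before and one after quantile normalisation over all arrays, made with limma according to the submitters' processing notes. Bead summarisation, background subtraction and chip positions were not stated in the sources read, so no chip was fitted as a batch. All columns matched a sample by name (0 left over). The tables' normalised log2 values were analysed in R 4.3.3 with limma 3.58.1: a model of the 5 group means (6 residual degrees of freedom, 6.15 added by moderation), each comparison as its own contrast, and Benjamini-Hochberg adjustment over all 45281 probes. Members were called at an adjusted p of 0.05 and a log2 change of 0.5, the thresholds of the methods. Their low-signal limit of 6.5 was not applied as a filter; 42388 probes reach it on every array. Each gene was represented by its brightest probe by mean signal, since 9172 genes had several. Gene names came from the platform annotation: 34885 probes had 1 gene, 18 several and 10378 none, while 78 of the named probes are missing from the RefSeq table.

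No detection p-values were at hand, so background was set at 6.85, the mode of all values (6.65) plus 3 times the spread below it (0.0688). For a group wholly at or below it, the lower limit of the fold was taken against the higher of that threshold and the dim group's own signal on each array. The number of arrays limits precision. The fit was tested on simulated data with known changes.

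All members are named. Values per array are given for called members with the largest changes and no overlap of arrays, up to 8 in each direction against control adipocytes or preadipocytes and up to 4 in the other comparisons, and called genes of the other transport list up to 4 in each direction; genes beyond this were chosen after their values were seen. The members, lists, tests and named alternatives were chosen with earlier results of these data known. Alternatives covered normalisation, probe choice, thresholds, the replicate number as a block and leaving out each array.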

Additional observations from a re-analysis of the deposited data

Results flagged for a closer look

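For 3 members the interaction of the shRNAs passed the thresholds in limma across all 11 arrays. On the log2 scale the double knock-down lay above the sum of the single knock-downs by 1.33 for Kpnb1 (adjusted p = 0.000752), by 1.07 for Kpna3 (adjusted p = 0.000131) and by 0.95 for Pom121 (adjusted p = 0.00338). Each of these genes was lower in both single knock-downs and in the double knock-down than in control adipocytes. The sum of the single knock-downs lies below the background of 6.85, at 6.79 for Kpnb1, 5.99 for Kpna3 and 6.26 for Pom121, where these arrays do not measure levels. Counted from background, the double knock-down stood higher by 1.27 for Kpnb1 and by only 0.20 for Kpna3 and 0.35 for Pom121. For the latter genes most of the departure thus lies below the background threshold. Whether the lower limit of the signal produced it was not tested. The 3 values use the same control arrays, and a call was made for 1.67% of all genes in the same direction. In the main fit these were 319 genes, with 154 in the other direction. With arrays aligned by their medians alone the numbers were 1709 and 5. The part of normalisation in the 3 departures was not tested.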

How the results depend on the processing

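Of the changes of single members described above, 741 values under alternatives kept their direction and side of the thresholds, 31 lost the call and 4 reversed. Some alternatives could hardly change a call, so this tally does not measure robustness. Without a fold threshold every called member stays called, and leaving out an array of a group not compared keeps the estimate. The joint F test counts differentiation in every comparison. In differentiation the count of 27 called members was 15 at a log2 change of at least 1, and 5 of 15 on the second probe of genes where that probe exceeded background on at least 1 array. For Tmem120a, 3 called members became 10 (all lower) with median alignment, 8 without a fold threshold and 0 on the second probe. For Tmem120b, 7 became 4 (all lower) with median alignment, 15 without a fold threshold, 3 at a log2 change of at least 1 and 1 on the second probe. For the double knock-down, 7 became 16, 3 and 2 under the last 3 of these settings. Between the single knock-downs 3 became 10, 0 and 0, and between the double and Tmem120a knock-downs 1 became 4, 0 and 0. The departure from additivity had 0 instead of 3 on the second probe, where Kpnb1, Kpna3 and Pom121 have none. On the second probe, whose mean over arrays lies at background for both genes, Nup93 changed by -0.03 for Tmem120b, -0.03 for the double knock-down and 0.03 between the single knock-downs, and Ranbp2 by 0.13 for the double knock-down. The cause of these shifts was not tested. That alignment moved the median departure from additivity over all genes from -0.02 to 0.11, and of the members to 0.45, and gave all genes in differentiation a split of 3605 higher and 1261 lower and in the double knock-down of 154 and 1597.

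Leaving out 1 array at a time gave 26 to 27 called members in differentiation, 3 to 4 for Tmem120a, 7 to 8 for Tmem120b, 6 to 7 for the double knock-down, 2 to 3 between the single knock-downs, 1 to 3 between the double and Tmem120a knock-downs, 0 to 0 between the double and Tmem120b knock-downs and 3 to 4 for the departure from additivity. Deviations from the group mean of arrays with the same replicate number correlated between -0.139 and 0.214. In a group of 2 arrays these deviations mirror each other, so the correlations cannot settle whether the samples were paired. With the replicate number as a block, the counts in the same order were 27, 4, 8, 7, 3, 1, 0 and 3. With 2 or 3 arrays a group, and members at background on every array, smaller changes could not be measured.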
